A study of Mus musculus with 6 samples.

Results

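The IL-36 genes of the interleukin-1 family were followed in imiquimod-treated mouse skin: the cytokines Il1f6 (Il36a), Il1f8 (Il36b) and Il1f9 (Il36g), the antagonist Il1f5 (Il36rn) and the receptor Il1rl2. Members were all probes that the array files name by either symbol, which gave 8 probes for these 5 genes, out of 41115 probes and 17778 tested genes. The measured groups were 3 samples of whole back skin under imiquimod and 3 under vehicle, all from female mice of the inbred strain C57BL/6J, aged 6 to 8 weeks. The imiquimod group received 62.5 mg of 5% imiquimod cream each day for 7 days on shaved skin; the other group received the same amount of vehicle cream, so shaving and daily handling were shared by both. Imiquimod is an agonist of the RNA sensor Tlr7 and is used to provoke a psoriasis-like inflammation of mouse skin. The series as a whole asked about silencing of a secreted Wnt antagonist in epidermal thickening; how the IL-36 system differed between the same samples is described here. No label says that each sample came from its own animal, so the p-values speak of the variation among these samples, some of which may be technical.

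IL-36α, IL-36β and IL-36γ are made mainly by epithelial cells, among them keratinocytes. They bind the receptor chain encoded by Il1rl2, which then recruits the accessory chain Il1rap and signals through Myd88 and Irak kinases to NF-κB and MAP kinases. The antagonist encoded by Il1f5 binds the same receptor chain without recruiting Il1rap. Loss of the human antagonist causes generalised pustular psoriasis, and the cytokines gain most of their activity when neutrophil or epithelial proteases trim their amino terminus.

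The records of this series disagree on which array is which. In 6 of 6 scanner files the treatment word in the file name was the opposite of the one in the title under which the file is deposited. Each scanner file matched a single column of the deposited value table by rank (Spearman correlation of 1.00 over 24088 probes), against 0.944 to 0.953 with the column of its own depositing sample. For 6 of 6 files the title of the matched column holds the same treatment as the file name. Each array was therefore given the sample of its matching column, and groups are named by that sample's title. Read as filed, every difference below has the same size and the opposite sign. By the array headers, slide 1 held the 3 vehicle arrays and imiquimod array 1, and slide 2 held imiquimod arrays 2 and 3. The extraction software set vehicle arrays 2 and 3 to a quality status of evaluate, with mean net negative-control signals of 40.9 and 45.2 against 31.7 to 37.6 elsewhere. The share of probes well above background was 61.6% to 67.8% per array.

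The values of Il1f6, Il1f9, Il1rl2 and of the neighbouring gene Il1f10 rest on short probes. Those shown identify the transcripts behind the largest increase, the second readings of Il1f9 and of the receptor, and the decrease within the gene cluster. All letters are lower case, since no motif was sought in them. Positions are those of the array files on mm9, and the strand is that of the probe as printed in the files.
Il1f6 probe A_51_P504194: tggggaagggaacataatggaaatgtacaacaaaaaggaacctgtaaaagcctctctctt
Il1f9 probe A_52_P414013: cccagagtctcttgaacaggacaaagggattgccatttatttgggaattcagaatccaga
Il1rl2 probe A_51_P467808: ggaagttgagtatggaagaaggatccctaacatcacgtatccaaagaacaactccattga
Il1f10 probe A_51_P494561: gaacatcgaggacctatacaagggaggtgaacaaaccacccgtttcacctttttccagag
The 60 bases of the Il1f6 probe map from chr2:24072192 to 24079960, a span of 7769 bases, so the probe crosses at least 1 splice junction. The Il1f8 probe A_51_P111293 lies at chr2:24015639-24015698. Those of Il1f9 lie at chr2:24044170-24044229 (A_52_P414013) and chr2:24048444-24048503 (A_51_P408116). For Il1f5 the positions are chr2:24134335-24134394 (A_52_P127133) and chr2:24137461-24137520 (A_51_P112796), and for Il1rl2 chr1:40402652-40402711 (A_51_P467808) and chr1:40424245-40424304 (A_52_P261184). No mm9 gene models were used here, so exon and UTR boundaries within these positions are not given.

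Promoter sequences were taken from RefSeq on GRCm38.p6, from 250 bases before to 50 after an annotated start. The table matched 4 of the 5 genes, all but Il1f6, with 5 promoters in all because Il1f5 has 2 starts. The 3 promoters below are shown because their genes rose together and they hold a match to AP-1 (TGANTCA) or NF-kB (GGG, then 5 bases of any kind, then CC), searched on both strands and printed in capitals.
Il1f8 promoter, chr2:24152922-24153221, plus strand: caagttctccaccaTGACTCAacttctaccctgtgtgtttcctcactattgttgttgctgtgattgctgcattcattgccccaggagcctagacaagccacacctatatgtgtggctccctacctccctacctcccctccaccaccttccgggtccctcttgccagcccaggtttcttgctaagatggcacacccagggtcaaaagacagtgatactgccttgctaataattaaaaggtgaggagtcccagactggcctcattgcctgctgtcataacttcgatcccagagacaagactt
Il1f9 promoter, chr2:24186226-24186525, plus strand: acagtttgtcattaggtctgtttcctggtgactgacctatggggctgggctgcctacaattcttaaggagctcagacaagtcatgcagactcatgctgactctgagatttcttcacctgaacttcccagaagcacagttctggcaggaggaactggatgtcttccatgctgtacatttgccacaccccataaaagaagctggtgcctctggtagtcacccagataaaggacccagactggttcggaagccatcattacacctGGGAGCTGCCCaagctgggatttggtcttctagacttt
Il1f5 promoter of the second start, chr2:24277021-24277320, plus strand: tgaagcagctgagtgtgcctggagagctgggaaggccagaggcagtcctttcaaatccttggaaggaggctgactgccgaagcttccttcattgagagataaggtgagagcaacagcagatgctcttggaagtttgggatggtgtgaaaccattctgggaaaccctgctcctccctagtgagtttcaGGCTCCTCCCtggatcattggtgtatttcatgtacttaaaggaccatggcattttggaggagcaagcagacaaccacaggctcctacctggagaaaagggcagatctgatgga
The AP-1 letters occurred once among these, in Il1f8 at -236 from the start, and 7.81% of the 32851 promoters in the table hold them. The NF-kB letters occurred in Il1f9 at 13 and 14, as overlapping matches on opposite strands, and at -63 of the second Il1f5 start; 50.8% of all promoters hold them. STAT letters (TTCNNNGAA, in 8.30% of promoters) lay at -128 in Il1f9 and at -98 of the second Il1f5 start. C/EBP letters (TTGCNNAA, in 10.8%) lay at -71 of the first Il1f5 start and at -124 in Il1rl2, and TATA letters (TATAAA, in 13.6%) at -166 in Il1rl2. These matches describe letters, and binding was not measured.

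All 3 IL-36 cytokines and the antagonist rose under imiquimod, and the receptor chain did not pass the test. At an adjusted p under 0.05 (limma over 17778 genes, two-sided, Benjamini-Hochberg), 4 of the 5 genes were called, all 4 higher. Over all tested genes 23.6% were called, 12.8% higher and 10.8% lower. In 5 of 5 genes every imiquimod array lay above every vehicle array in the probe that represents the gene, where 25.3% of tested genes separated in that direction and 21.2% in the other. All 8 probes were well above background on all 6 arrays. Values are log2 processed signal minus the array's 75th percentile, and differences are imiquimod minus vehicle on that scale, where 1 is a doubling. Levels of different probes are not set against each other, because probes differ in how strongly they bind.

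Il1f6, which encodes IL-36α, rose most among the 5 genes. The vehicle arrays read -1.43, -0.10 and -0.93, and the imiquimod arrays read 2.90, 3.65 and 3.04. Vehicle array 2 was the highest of its group, and the lowest imiquimod array still stood 3.01 above it. The group means were -0.82 ± 0.67 and 3.20 ± 0.40 (SD, n = 3 each). The difference of 4.02 (SE 0.38, 95% interval 3.09 to 4.94, adjusted p = 0.00268) is a 16.2-fold change, and 90 of the tested genes (0.506%) differed upward by at least as much.

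Il1f8 and Il1f9, which encode IL-36β and IL-36γ, rose by similar amounts. Il1f8 read 1.20, 1.63 and 1.65 on the vehicle arrays and 3.17, 4.05 and 3.78 on the imiquimod arrays. Imiquimod array 1 was the lowest of its group and lay 1.52 above the highest vehicle array. The difference was 2.17 (SE 0.26, 95% interval 1.53 to 2.81, adjusted p = 0.00479), or 4.51-fold. Il1f9 was represented by probe A_51_P408116, with -0.88, -0.82 and -0.23 under vehicle and 1.44, 1.73 and 1.35 under imiquimod. Its difference was 2.15 (SE 0.21, 95% interval 1.62 to 2.68, adjusted p = 0.00312), or 4.44-fold. The second Il1f9 probe, A_52_P414013, read -2.36, -2.14 and -1.73 against 0.16, 0.32 and -0.03, a difference of 2.22. In both Il1f9 probes vehicle array 3 was the highest of its group and the groups stayed apart.

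Il1f5, the antagonist, rose less. Probe A_51_P112796 read 4.01, 4.42 and 4.18 under vehicle and 5.30, 5.86 and 5.58 under imiquimod. The difference was 1.37 (SE 0.19, 95% interval 0.91 to 1.84, adjusted p = 0.00701), or 2.59-fold. The second probe, A_52_P127133, read -2.40, -2.17 and -1.86 against -0.94, -0.41 and -0.65, a difference of 1.47. Each probe separated the groups, with imiquimod array 1 the lowest of its group in both. Slide 2 held imiquimod arrays alone, so with a slide term each difference is that of imiquimod array 1 from the 3 vehicle arrays. Once slide was entered as a term, the Il1f5 difference was 1.09 and no longer called (adjusted p = 0.0669), while the calls of the 3 cytokines stayed, at differences of 3.72, 1.68 and 2.08 for Il1f6, Il1f8 and Il1f9 (adjusted p = 0.0342, 0.0352 and 0.0382).

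Il1rl2, the receptor chain, was not called. Probe A_52_P261184 read 2.28, 2.02 and 2.56 under vehicle and 2.60, 2.61 and 2.59 under imiquimod. The imiquimod arrays lay close together, and their lowest stood 0.02 above the highest vehicle array. The difference was 0.31 (SE 0.16, 95% interval -0.07 to 0.70, adjusted p = 0.199). The second probe, A_51_P467808, overlapped between groups, with -2.86, -3.06 and -2.52 against -2.83, -2.82 and -2.61, a difference of 0.06 and a 95% interval of -0.35 to 0.47. Both intervals exclude a rise of the size found in any of the cytokines or in Il1f5.

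**Figure D1:**
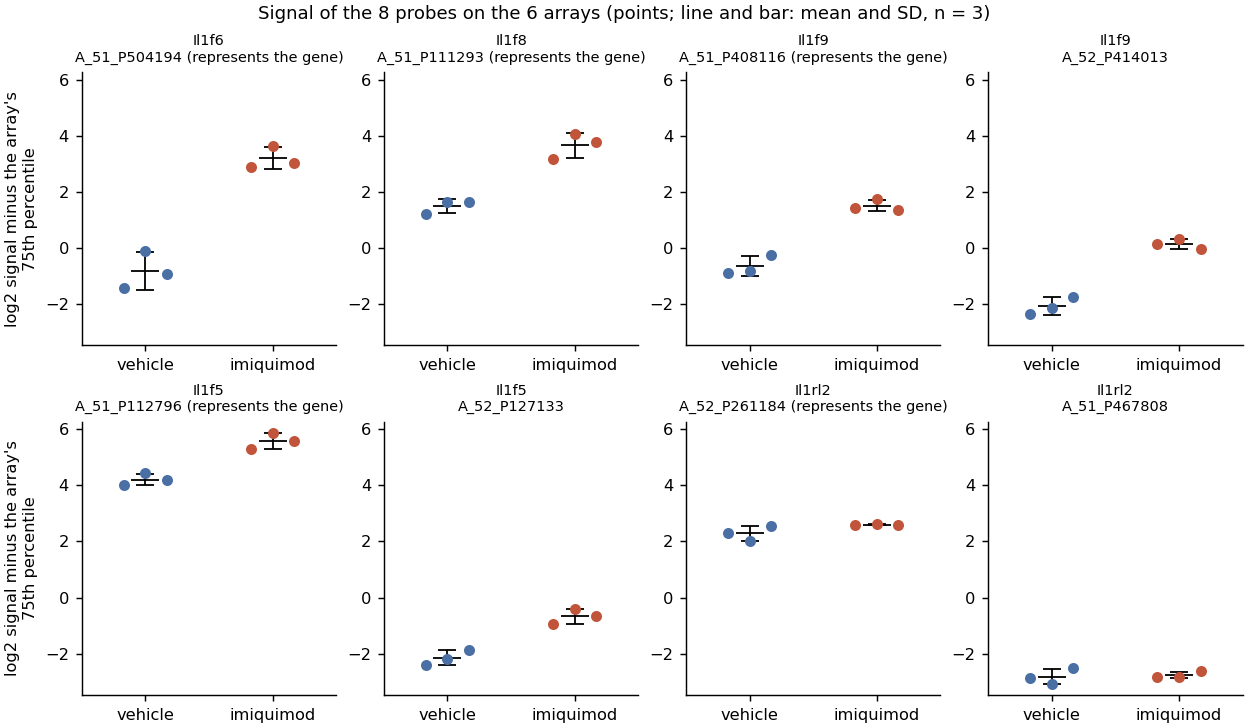
Signal of each of the 8 probes on the 6 arrays, as log2 processed signal minus the array's 75th percentile (y axis) for vehicle and imiquimod (x axis). Points are arrays in replicate order, and the line and bar give the mean and SD of 3 arrays. The groups stand apart in Il1f6, Il1f8, Il1f9 and Il1f5, while those of the second Il1rl2 probe overlap; heights compare arrays within a panel, not probes.

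The changes of the 5 genes were then compared with each other within arrays, which removes any scaling of a whole array. Il1f6 rose by 1.84 more than Il1f8, by 1.87 more than Il1f9 and by 2.64 more than the antagonist Il1f5. Il1f8 and Il1f9 rose by 0.80 and 0.78 more than Il1f5. The changes of Il1f8 and Il1f9 differed by 0.02, well within their spread (exact permutation test, two-sided, p = 1). Set against the receptor, Il1f6 rose by 3.71 more than Il1rl2, Il1f8 by 1.86, Il1f9 by 1.84 and Il1f5 by 1.06. Over all tested genes taken singly, 25.3% separated the groups upward and 21.2% downward. The share over all pairs of genes was not computed, and the 10 pairs reuse the same 5 genes. In 9 of the 10 pairs the within-array differences of the groups did not overlap. Each of those 9 gave p = 0.1 in the exact permutation test (two-sided, 20 splits, adjusted p = 0.111 over 10 pairs), which is the smallest value that 3 against 3 arrays allow, so this test could not pass a threshold of 0.05.

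**Figure D2:**
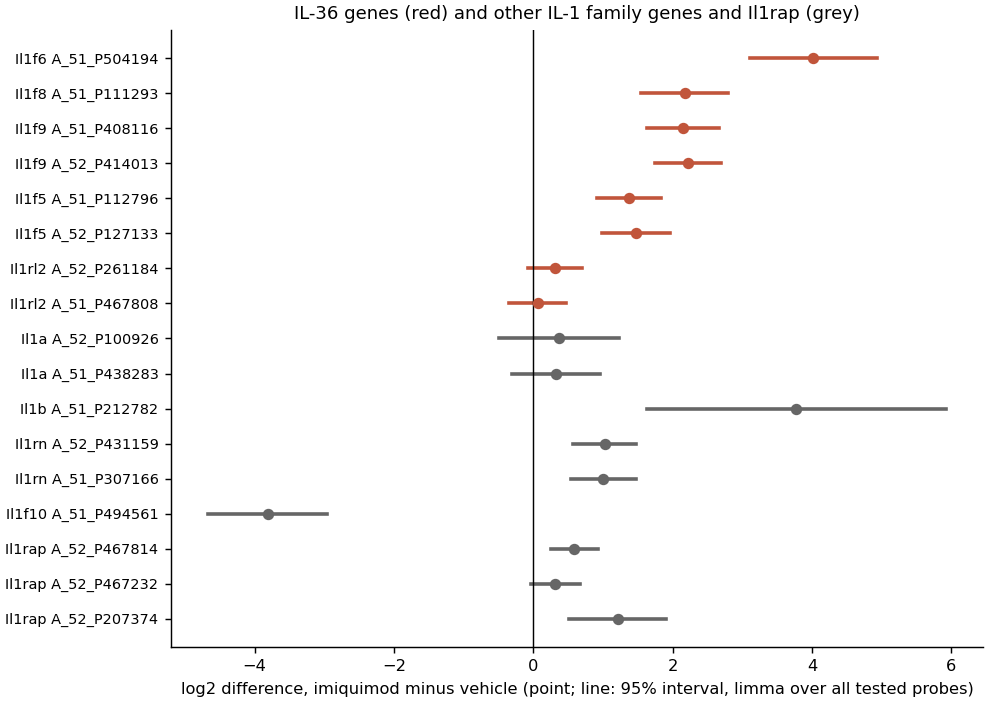
Difference of imiquimod minus vehicle (x axis, log2) with its 95% interval for the 8 probes of the IL-36 genes in red, and for the tested probes of Il1a, Il1b, Il1rn, Il1f10 and Il1rap in grey. Il1f6 stands at 4.02, Il1f8 and Il1f9 near 2.2, Il1f5 near 1.4 and both Il1rl2 probes reach across 0; Il1f10 lies at -3.82.

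On mouse chromosome 2 the 3 cytokines, the antagonist, Il1f10 and Il1rn follow each other in the RefSeq gene order. Il1f10, an IL-1 family member also called IL-38 that binds the IL-36 receptor, moved opposite to its neighbours. It read -1.24, -0.05 and -1.11 under vehicle and -4.98, -4.36 and -4.50 under imiquimod, so the groups were 3.13 apart. Its difference was -3.82 (SE 0.36, adjusted p = 0.00264), and its probe was well above background on 2 of the 3 imiquimod arrays, so the size of the fall rests partly on background. Il1rn, the antagonist of the IL-1 receptor, read 1.08, 1.22 and 1.31 against 2.03, 2.59 and 2.05, and rose by 1.02 (SE 0.18, adjusted p = 0.0149). Il1rn was no longer called after adding a slide term (0.83, adjusted p = 0.135), without vehicle array 1 (0.96, adjusted p = 0.0624) or without vehicle arrays 2 and 3 together (1.15, adjusted p = 0.0662). Of the genes beyond the cluster, Hnmt (0.58) and Psd4 (0.23) were not called, and Tbpl2 and Pax8 were not tested.

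**Figure D3:**
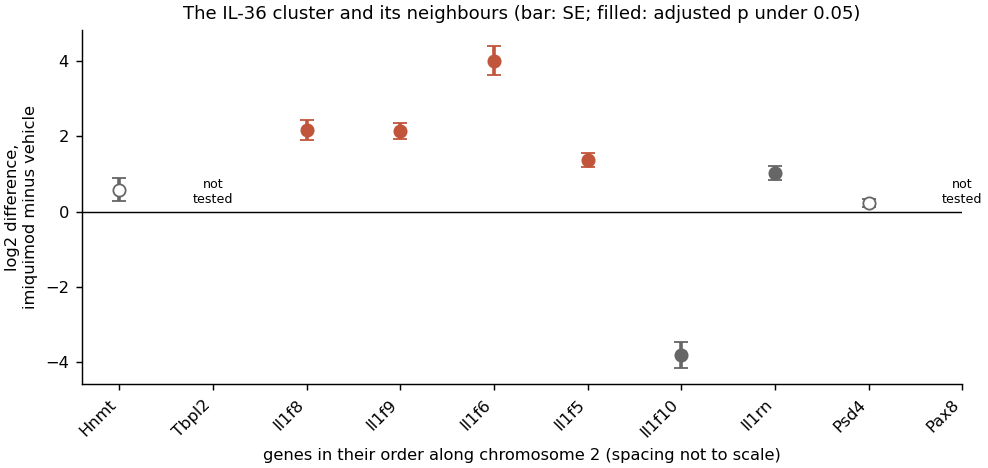
Difference of imiquimod minus vehicle (y axis, log2, bar SE) for genes in their order along chromosome 2 (x axis, spacing not to scale), IL-36 genes in red, filled where the adjusted p is under 0.05. The 4 IL-36 genes and Il1rn lie above 0, and Il1f10, which sits between Il1f5 and Il1rn, lies at -3.82.

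Of 18 tested genes of the receptor complex and its signalling, 4 rose, none fell and 14 did not pass, where 23.6% of all tested genes were called and 12.8% were called higher. The median difference of the list was 0.37 beside 0.01 over all tested genes. Myd88, the adaptor of the receptor, rose from 1.40, 1.69 and 1.64 to 2.50, 2.40 and 2.21, by 0.79 (SE 0.14, adjusted p = 0.0128). Irak4, a kinase bound by Myd88, rose by 1.09 (SE 0.18, adjusted p = 0.0109), and by 0.68 with normexp background correction. Il1rap, the accessory chain, rose by 0.59 (SE 0.14, adjusted p = 0.0296), and its 3 tested probes of 5 differed by 0.32 to 1.21. Rela, a subunit of NF-κB that was named after its value was seen, rose by 0.42 (adjusted p = 0.0430). Sigirr, a receptor that dampens this signalling, differed by -0.48 (adjusted p = 0.109), and Nfkbiz, a nuclear regulator induced by IL-36, by 0.63 (adjusted p = 0.333) with overlapping groups. The count of 4 was 1 without vehicle array 1, imiquimod array 1 or imiquimod array 2, 2 without imiquimod array 3 and 0 with a slide term. The Il1rap call was lost without vehicle array 1 or 2 or any single imiquimod array (adjusted p = 0.0523 to 0.103), without vehicle arrays 2 and 3 together (adjusted p = 0.0682) and without the filter on dim probes (adjusted p = 0.0657). The Myd88 call was lost without vehicle array 1 or imiquimod array 1 or 2 (adjusted p = 0.0504 to 0.0556). Sigirr was called without vehicle array 2 (-0.63, adjusted p = 0.0429).

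Among 12 other IL-1 family cytokines and receptors, 4 rose, 1 fell and 7 did not pass, with a median difference of 0.58. Over all tested genes 12.8% were called higher and 10.8% lower. Il1b, the main secreted IL-1 of myeloid cells, read -2.45, 0.85 and -1.28 under vehicle and 3.78, 2.55 and 2.11 under imiquimod, a rise of 3.78 (SE 0.89, adjusted p = 0.0321). Vehicle array 2 stood well above the other vehicle arrays here. Il1a, the IL-1 of keratinocytes, differed by 0.36 (SE 0.36, adjusted p = 0.491) with overlapping groups. The tested probe of Il18rap, a chain of the IL-18 receptor, was not well above background on any vehicle array and was at least 2.69-fold higher under imiquimod (adjusted p = 0.00789); with normexp background correction its difference was 0.62, which is below that bound. For such a bound, each dim reading was raised to the faintest probe that its array still measured well above background. Il33, an epithelial alarmin named after its value was seen, rose by 2.72 (adjusted p = 0.0167). Of 12 genes 5 were called in all, against 8 without vehicle array 2 and 2 without vehicle array 1. The Il1b call was lost without vehicle array 1 or 3 and without any single imiquimod array (adjusted p = 0.0657 to 0.105), without the filter on dim probes (adjusted p = 0.0518) and after adding a slide term (4.74).

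Proteases that trim IL-36 cytokines and the inhibitors of such proteases were measured for 6 of 7 genes, and 4 were tested. Of these 3 rose, none fell and 1 did not pass, where 12.8% of all tested genes were called higher. Slpi, an inhibitor of neutrophil elastase that epithelia secrete, read 0.02, 1.57 and 2.00 under vehicle and 6.56, 6.33 and 6.03 under imiquimod. It rose by 5.11 (SE 0.52, adjusted p = 0.00320). Ctss, cathepsin S, rose by 1.48 (SE 0.38, adjusted p = 0.0406), a call lost without vehicle array 1 or any single imiquimod array (adjusted p = 0.0975 to 0.121). It was also lost after adding a slide term (1.37, adjusted p = 0.228), under quantile normalization (adjusted p = 0.0586), from the deposited value table (adjusted p = 0.0583) and without the filter on dim probes (adjusted p = 0.0676). Serpina3n, a serpin, rose by 1.52 (adjusted p = 0.0111), and Ctsg, cathepsin G of neutrophils, differed by 0.86 (adjusted p = 0.246); both were named after their values were seen. Elane, neutrophil elastase, was well above background on 0 of 6 arrays and was not tested. Prtn3, also named after its values were seen, was so on 2 vehicle and 0 imiquimod arrays, too few to test.

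Of 26 genes known to be induced by IL-36 in skin cells, 25 were measured and 19 tested. Of these 11 rose, 1 fell and 7 did not pass, with a median difference of 3.46. Over all tested genes 23.6% were called, 12.8% higher. Cxcl3, Cxcl5 and Il19 were well above background on 0 vehicle and 3 imiquimod arrays, and Cxcl2, Il24 and Il6 on 1 and 3. Cxcl1, Ccl3 and Ccl4 were so on 2 and 3. Such genes reached the 3 arrays needed for a test only with the imiquimod group. The count of rises and the median therefore depend on the filter. With a filter on all 6 arrays, 5 genes of the list were called in place of 12. S100a8, a subunit of calprotectin, read -0.64, 2.74 and 0.92 under vehicle and 8.14, 8.38 and 7.81 under imiquimod, a rise of 7.10 (SE 0.82, adjusted p = 0.00433). Defb14, an epithelial β-defensin, read 0.69, 1.13 and 1.25 against 4.55, 4.73 and 4.17, a rise of 3.46 (SE 0.21, adjusted p = 0.00143). Ccl20, the chemokine that attracts Ccr6-bearing cells, fell by 3.12 on the log2 scale (SE 0.59, adjusted p = 0.0171), a call lost without vehicle array 1 (adjusted p = 0.0642), without imiquimod array 1 (adjusted p = 0.0666), without vehicle arrays 2 and 3 together (adjusted p = 0.0953) and after adding a slide term (adjusted p = 0.101). With normexp background correction Ccl20 differed by -2.08. Defb4 was not matched on the array.

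Within the vehicle group, array 2 held the highest readings of several of these genes. Cxcl1, a neutrophil chemokine, read -6.16, -1.05 and -3.98 under vehicle and 0.19, -0.23 and -2.51 under imiquimod, a difference of 2.88 (SE 1.40, adjusted p = 0.183). Il6 read -6.42, -0.02 and -5.37 against -1.01, -1.52 and -3.28, a difference of 2.00 (SE 1.72, adjusted p = 0.432); its probe was well above background on 1 vehicle array. Vehicle array 2 was the highest of all 6 arrays for Il6. Without it Cxcl1 differed by 4.22 (adjusted p = 0.0408) and Il6 by 3.96 (adjusted p = 0.0218), so both calls turned on this array. Csf3, which drives neutrophil production, was well above background on 0 vehicle arrays and 1 imiquimod array and was not tested.

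**Figure D4:**
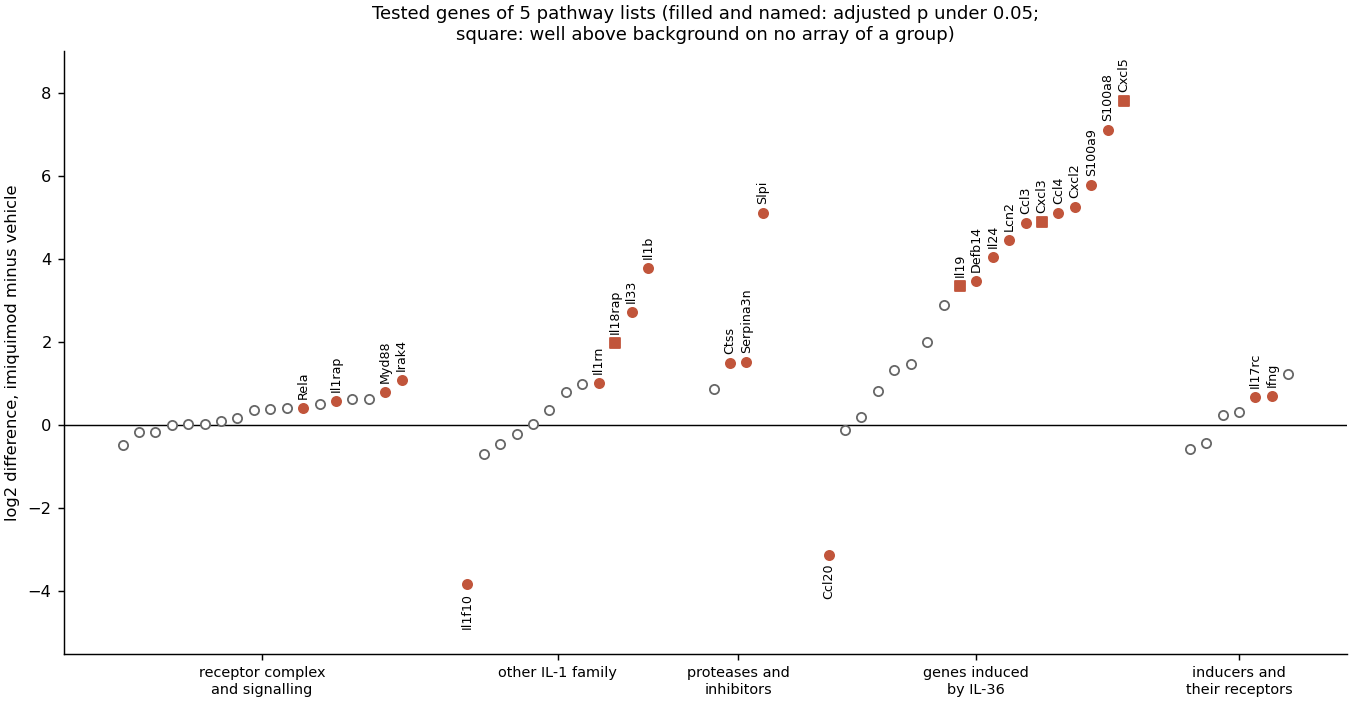
Difference of imiquimod minus vehicle (y axis, log2) for the tested genes of the 5 pathway lists (x axis, genes in order of their difference), filled and named where the adjusted p is under 0.05. Squares mark probes that no array of 1 group measured well above background, whose fitted difference depends on background. The list of genes induced by IL-36 holds most of the high values, with S100a8 at 7.10. Several of those high values belong to genes tested only with the imiquimod arrays. The signalling genes lie between -0.48 and 1.09.

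Of the genes that induce IL-36 expression or encode the matching receptors, 10 were measured and 7 tested. Of these 2 rose, none fell and 5 did not pass, with a median difference of 0.31. Over all tested genes 23.6% were called, 12.8% higher, so this count is near the share over all genes. Tlr7, the target of imiquimod, read -1.06, -1.95 and -0.54 under vehicle and -0.30, 0.01 and 0.40 under imiquimod, a difference of 1.22 that did not pass (SE 0.39, adjusted p = 0.0692) and passed without vehicle array 3 (1.54, adjusted p = 0.0315). Il17rc, a chain of the IL-17 receptor, rose by 0.67 (SE 0.15, adjusted p = 0.0296), and Ifng, named after its value was seen, by 0.69 (adjusted p = 0.0428). The Ifng probe was well above background on 1 vehicle array and 2 imiquimod arrays, so its difference rests partly on background. The call of Il17rc was lost without vehicle array 1 or any single imiquimod array (adjusted p = 0.0893 to 0.0987). A slide term (adjusted p = 0.160), quantile normalization (adjusted p = 0.0594), the deposited value table (adjusted p = 0.0594) and no filter on dim probes (adjusted p = 0.0615) ended it too. The count of 2 was 1 without vehicle array 1 or 2 and 0 without imiquimod array 1, 2 or 3. Il17ra (0.31, adjusted p = 0.553) and Il22ra1 (-0.43, adjusted p = 0.153) did not pass. Il17a, Il17f and Il22 were well above background on 0 vehicle arrays and on 2, 1 and 1 imiquimod arrays, too few to test.

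Marker lists of cell types differed between the same groups. In whole skin, more cells of a type and more RNA per cell cannot be told apart. Beside the counts below, 12.8% of all tested genes were called higher and 10.8% lower. Of the 10 measured markers of interfollicular keratinocytes 3 rose and 2 fell, with a median difference of -0.05. Their summed signal, in multiples of each array's 75th percentile, was 1076 to 1415 under vehicle and 1827 to 1986 under imiquimod. Such a sum follows the brightest markers of a list. Of 4 keratins of activated epidermis 3 rose, with sums of 167 to 308 against 776 to 964. Of 9 measured neutrophil markers 8 rose, with sums of 0.474 to 2.79 against 30.2 to 51.8. Ltf and Fpr1 were well above background on 2 vehicle arrays, Mpo on 1 and Ngp on 0, each on 3 imiquimod arrays. Such markers reached the test only with the imiquimod group, so this count depends partly on the filter. Of 8 markers of monocytes and macrophages 4 rose (80.6 to 179 against 278 to 340). Hair follicle markers fell in 9 of 10 genes (123 to 1554 against 3.69 to 5.31) and sebaceous gland markers in 5 of 5 tested (53.6 to 80.4 against 11.1 to 14.1). Of 8 dendritic and Langerhans cell markers 3 fell (23.3 to 44.5 against 14.9 to 22.0). Among the markers that fell, Krt25, Krt85, Krt2 and Cd209a were not well above background on any imiquimod array. The sizes of those falls rest partly on background, and those markers passed the filter on the vehicle arrays alone. Of 7 tested T cell markers 1 fell, of 7 fibroblast markers 4 rose, of 6 endothelial markers 3 rose, and of 6 skeletal muscle markers 1 fell. The part of these shifts in the IL-36 differences was not tested.

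For each member, the 3 other named genes with the closest pattern were found by root mean square distance of log2 values centred per gene, over 6 arrays and 14894 genes. This likeness is a description of 6 arrays. Those nearest to Il1f6 were Zfhx2os (distance 0.28), Serpinb3a (0.30) and Ltf (0.32), with differences of 3.70, 4.42 and 3.88. Il1f8 lay nearest to Abi3 (0.18), Hhipl1 (0.22) and Ido2 (0.23), and Il1f9 nearest to Igf2bp2 (0.13), Duox1 (0.16) and Aknad1 (0.16). The closest to Il1f5 were Nkpd1 (0.07), Pla2g4f (0.10) and Serpinb11 (0.11). Il1rl2, whose values varied little, lay near Cox7b (0.016) and Lgals8 (0.036), neither of which was called.

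**Figure D5:**
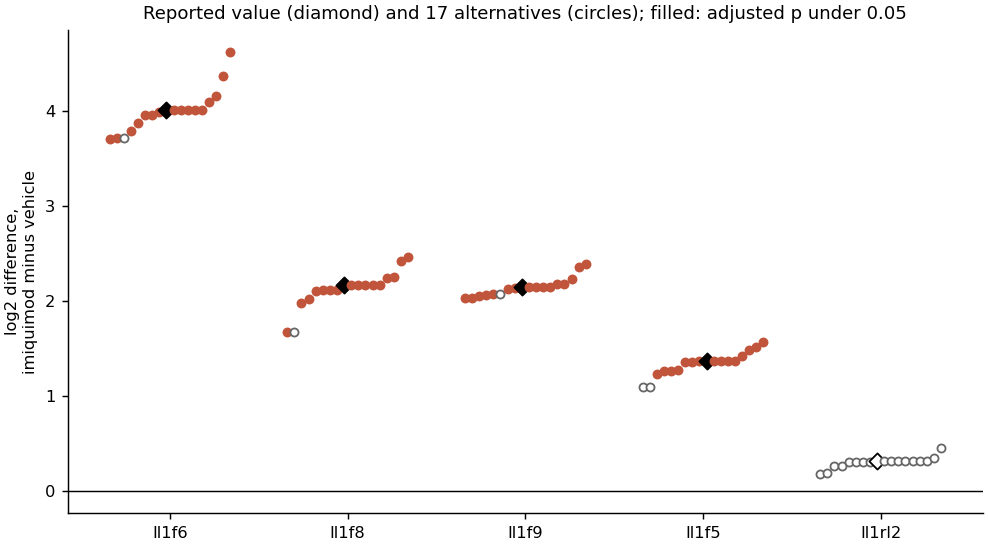
Difference of imiquimod minus vehicle (y axis, log2) of each of the 5 genes (x axis) as reported (diamond) and under 17 other settings of the analysis (circles, in order of value), filled where the adjusted p is under 0.05. The scanner files as filed are left out; they give the same sizes with the sign turned. Il1f6 ranged from 3.71 to 4.62 and Il1rl2 from 0.18 to 0.45, with no setting calling Il1rl2.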

How the data were processed

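Total RNA of 6 skin samples was hybridised to single-colour (Cy3) Agilent mouse arrays. The authors deposited scanner files with spot intensity on a linear scale, background-subtracted per the file headers, made with Agilent Feature Extraction 10.7.3.1 per the file headers and 9.1 per the submitters' processing notes. The authors also deposited a value table on a log2 scale, whose normalization between arrays is not given in the sources used here.

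Each scanner file took the sample of the value-table column it matched, and each sample its group from its title. Control spots and 322 spots with outlier flags were left out, spots of a probe were averaged, and each array's 75th percentile was subtracted from log2 processed signals. Probes well above background on at least 3 of 6 arrays were tested (27415 of 41115), and the tested probe of highest mean represented a gene. The 2 groups were fitted without covariates by lmFit and eBayes of limma 3.58.1 under R 4.3.3, and two-sided p-values were adjusted by Benjamini-Hochberg over 17778 genes at 0.05. Differences between members were compared with an exact permutation test. The limma calls were tested on simulated data, and the choice of a probe per gene on a small example with a known answer. The number of arrays limits the precision.

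The members, gene lists, alternatives and the rule for named genes were chosen with earlier results of these data known. The rule named the 5 members, 18 genes fixed by name across 5 pathway lists, the called gene of smallest p in each direction of a list, and the 3 genes closest to each member, of which 1 is not reported here; cell type lists are given by counts and summed signal. Alternatives were quantile normalization, normexp background correction (offset 50), other filters and probe rules, a variance trend with robust estimation, slide or replicate number as a block, slide 1 alone, arrays left out, the value table and the files as filed.

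The labels' replicate numbers were checked as pairs: across genes, centred on the group mean, imiquimod and vehicle arrays of numbers 1, 2 and 3 correlated at -0.0872, 0.0676 and 0.0854, so the numbers were not taken to pair samples.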

Additional observations from a re-analysis of the deposited data

How the results depend on the processing

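Under 17 alternatives the 4 called IL-36 genes kept their direction, with differences of 3.71 to 4.62 for Il1f6, 1.68 to 2.47 for Il1f8, 2.03 to 2.39 for Il1f9 and 1.09 to 1.57 for Il1f5. Calls were kept under 16, 16, 16 and 15 of them, and Il1rl2 (0.18 to 0.45) was called under none (lowest adjusted p = 0.0570). Within slide 1, where 1 imiquimod array stands against 3 and is assumed to vary as they do, Il1f6 (3.72), Il1f8 (1.68), Il1f9 (2.08) and Il1f5 (1.09) were not called (adjusted p = 0.0991, 0.106, 0.107 and 0.153), nor was Il1f5 with slide as a block (1.09). With the scanner files as filed, the signs turned: -4.02, -2.17, -2.15 and -1.37. Leaving out 1 array gave 3.71 to 4.38, 1.98 to 2.42, 2.03 to 2.36 and 1.23 to 1.51, with all 4 called.

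The 4199 called genes became 1077 with slide as a block, 2214 with the replicate block and 1665 to 4634 without 1 array. None of the 4 member calls ended under the replicate block. The replicate block left 1 of 4 called signalling genes and 0 of 2 called inducers and receptors; it ended the calls of Il1rap (adjusted p = 0.0878), Myd88 (0.0543), Il1b (0.0752), Ctss (0.0839), Ccl20 (0.0567) and Il17rc (0.0718). The 4 signalling genes became 2 without the filter on dim probes or without the arrays of status evaluate, 0 with slide as a block or within slide 1, and 1 to 5 without 1 array. The 12 called genes induced by IL-36 became 5 with a filter on all 6 arrays, which tests fewer genes, 7 with slide as a block and 1 within slide 1. The 2 called inducers and receptors became 1 under quantile normalization, normexp, the filter on all 6 arrays, the variance trend, without the arrays of status evaluate, or from the value table, 0 with slide as a block or within slide 1, and 0 to 2 without 1 array. The 5 other IL-1 family genes became 3 with slide as a block, 0 within slide 1 and 2 to 8 without 1 array. The 3 proteases and inhibitors became 0 within slide 1. Apart from the filter, the cause was not tested. Slide 2 held imiquimod arrays alone, so slide 1 decides every estimate with a slide term.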
